A study of Mus musculus with 18 samples.

Results

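The 10 genes described here encode proteins of purinergic and adenosine signalling: the ATP-gated channels *P2rx4* and *P2rx7*, the nucleotide receptors *P2ry2*, *P2ry6* and *P2ry14*, the adenosine receptors *Adora2a*, *Adora2b* and *Adora3*, the ectonucleotidase *Entpd1* and the release channel *Panx1*. They were chosen by symbol, with joined symbols split, from a table of normalized counts for 62197 genes, of which 25177 carry a symbol. All 10 were found, and all 10 were among the 17875 genes that passed a filter, 10 or more normalized counts in 3 or more libraries, and were tested.

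Bulk RNA-seq was done on mouse bone marrow-derived dendritic cells (DCs) to ask how squeezing the cells between parallel surfaces changes their state and whether the phospholipase cPLA2 is needed. Marrow came from mice of 6 to 8 weeks and was cultured for 10 days with GM-CSF. Poly(A) RNA was sequenced in 18 libraries, 3 in each of 6 groups, and a normalized count is a gene's read count divided by a size factor of its library, with no correction for gene length. Reads on genes could be recovered as whole numbers, within 0.0001 of a read, and ranged from 33027230 to 61300021 per library, with a median of 40950398.

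The genotypes are WT and KO for cPLA2. According to the study's methods, KO mice carry floxed *Pla2g4a* alleles and Cre recombinase driven by *Itgax*, the CD11c gene, so that deletion depends on expression of that promoter in the cultured cells. Nonconfined WT and nonconfined KO cells are labelled as immature and were collected at the end of the culture. A protocol text given alike for all samples mentions LPS, also for these and the confined cells, and the titles and treatment labels, which name LPS for the LPS groups alone, were followed. Confined WT and confined KO cells were held at a height of 3 µm and collected 4 h after confinement. Cells of the groups labelled LPS WT and LPS KO were given lipopolysaccharide, a bacterial ligand of TLR4, at 100 ng/ml for 30 min according to the labels and 25 min according to the methods, and were washed and kept until the next day. Because collection times differ, nonconfined, confined and LPS-treated cells also differ in time and handling. Treatment cannot be told apart from these in any comparison between them. Nothing in the labels ties a library to a separate mouse or culture, so p-values measure the spread between these libraries.

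ATP and other nucleotides leave stressed or activated cells through channels such as pannexin 1 and act on P2X channels and G protein-coupled P2Y receptors of neighbouring cells. CD39, encoded by *Entpd1*, removes phosphates from ATP and ADP outside the cell, CD73, encoded by *Nt5e*, turns AMP into adenosine, and adenosine acts on its own family of receptors, of which A2a and A2b raise cAMP and A3 lowers it. In DCs, extracellular ATP is known as a danger signal, and adenosine is known to modulate cytokine release.

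The targeted gene was examined in every library as a check of the labels. *Pla2g4a* was present at 697, 686 and 770 normalized counts in nonconfined WT and at 548, 542 and 533 in nonconfined KO libraries, and at 1369, 1430 and 1321 in confined WT and 923, 871 and 920 in confined KO libraries. The KO libraries were thus lower in these treatments, without overlap. In the libraries labelled LPS it was present at 1005, 969 and 967 for WT and at 1065, 1032 and 1028 for KO. *Pla2g4a* was thus not lower under the KO label, unlike in the other treatments, so that it did not follow the labels there. As given below, limma called no gene between these labels. *Ddx3y*, a gene of the Y chromosome, was at 1271, 0 and 662 in the libraries labelled LPS WT and at 2.12, 1476 and 783 in those labelled LPS KO, whereas it did not exceed 3.05 in any nonconfined or confined WT library and lay between 874 and 1036 in the KO libraries of these treatments. Replicate 1 labelled WT and replicate 2 labelled KO were high, and replicate 2 labelled WT and replicate 1 labelled KO were at or near 0. *Acot1*, chosen after its values were seen, was at 3.81, 0 and 0.983 in nonconfined WT, 6.76, 5.15 and 4.74 in confined WT, 478, 377 and 400 in nonconfined KO and 588, 626 and 589 in confined KO libraries. It was at 54.9, 0.915 and 33.6 in the libraries labelled LPS WT and at 0, 49.2 and 40.7 in those labelled LPS KO. As for *Ddx3y*, WT 1 and KO 2 were the highest of the LPS libraries, WT 2 and KO 1 the lowest and the third of each label between them, but none of them came near the *Acot1* level of the other KO libraries, so that this gene does not tell which label is right. No direction between genotypes is therefore drawn from the LPS libraries, their genotype is given only as labelled, and LPS results are also given with both labels pooled.

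Transcripts that mark donor sex differ between the genotypes in the nonconfined and confined cells. The levels of *Xist*, a transcript of the inactive X chromosome, were 27953, 33681 and 30681 in nonconfined WT and 12153, 19081 and 14328 in nonconfined KO libraries, and 22734, 33482 and 29759 in confined WT and 16980, 24835 and 20600 in confined KO libraries. The WT libraries thus held *Xist* with *Ddx3y* near 0, whereas the KO libraries held both, so that the contrast is not simply female against male. How many donors went into a library is not given in the labels. Genotype and the sex of the donors cannot be told apart in comparisons of KO with WT nonconfined or confined cells, whereas in the LPS libraries *Ddx3y* does not follow the genotype label. *Ccr7*, the chemokine receptor of migrating DCs and a check of treatment, was at 16166, 15734 and 15753 in nonconfined WT, 33397, 32199 and 33237 in confined WT, 17366, 15815 and 16173 in nonconfined KO and 8907, 8891 and 8957 in confined KO libraries, and between 47815 and 54853 in the 6 LPS libraries.

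DC markers were present in every library. All 8 genes of the DC list had at least 10 normalized counts in each of the 18 libraries, while *Flt3* was low, at 27 to 166. Their sum, led by *Cd74*, was 438094, 412928 and 418370 in nonconfined WT, 519263, 490528 and 508616 in nonconfined KO, 387479, 360054 and 371271 in confined WT, 362291, 348233 and 361024 in confined KO, 613001, 521024 and 556803 in the libraries labelled LPS WT and 524303, 600296 and 571670 in those labelled LPS KO. It was lower in confined and higher in LPS-treated than in nonconfined cells of the same label, without overlap. This sum follows its most abundant genes. *Cd86* rose from 3097, 3193 and 3163 in nonconfined WT to 8168, 8350 and 8241 in confined WT libraries. *Itgax* was at 6289, 6386 and 6167 in nonconfined WT and 4449, 5879 and 5198 in nonconfined KO libraries, against the sum. That comparison called 4 of the 8 higher and 1 lower (4.78% and 4.11% of all genes). Of the 8 genes, confinement called 6 lower and 1 higher in WT cells and 7 lower and 0 higher in KO cells, and LPS called 7 higher and 0 lower under the WT label and 5 higher and 0 lower under the KO label, to be read against the shares of all genes given with the comparisons below. All 9 macrophage genes were above 10 in each library, with a sum led by *Csf1r* of 65319 to 68272 in nonconfined WT, 65271 to 67538 in confined WT, 72102 to 76702 in nonconfined KO, 70026 to 76911 in confined KO, 53783 to 65110 in LPS WT and 53612 to 63167 in LPS KO libraries as labelled. Under LPS the sum was lower, as its most abundant gene was, while *Adgre1* rose from 6682, 6690 and 6823 in nonconfined WT to 14322, 9802 and 12098 in the libraries labelled LPS WT. Of the 9 genes, 2 were called higher and 4 lower under that label, where 33.4% of all genes were higher and 29.4% lower. Under the KO label 2 were called higher and 6 lower, where 33.4% were higher and 30.1% lower. Of 7 lymphocyte genes, at most 4 reached 10 in any library, with a sum of 75.8 to 246 led by *Cd3d*.

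Summed markers of granulocytes moved with the groups. According to the study's methods, granulocytes arise in such cultures too and are lost as nonadherent cells, macrophages stay on the plate, and the loosely adherent cells were taken as DCs. The sum of the 7 eosinophil genes, all above 10 in each library and led by *Prg2*, was 33352, 33225 and 33201 in nonconfined WT, 82359, 76319 and 78430 in nonconfined KO, 9829, 9342 and 9221 in confined WT, 24955, 24628 and 25520 in confined KO, 47382, 27450 and 38018 in the libraries labelled LPS WT and 27436, 47631 and 38651 in those labelled LPS KO. It was lowest in confined WT and highest in nonconfined KO cells. The sum follows its most abundant genes, and other genes of the list went other ways. *Siglecf* was at 1426, 1346 and 1435 in nonconfined WT, 1576, 1356 and 1411 in confined WT and 931, 990 and 907 in nonconfined KO libraries, and *Ccr3* at 82.3, 83.6 and 90.4, at 207, 190 and 173 and at 246, 220 and 221 in the same groups. *Siglecf* thus did not separate the nonconfined from the confined WT libraries and was lower in nonconfined KO cells, and *Ccr3* was higher in confined WT cells. The sum of the 9 neutrophil genes, all above 10 in each library and led by *S100a9*, was 240231, 245234 and 243512 in nonconfined WT, 370704, 333248 and 358600 in nonconfined KO, 154413, 147158 and 144932 in confined WT, 333918, 346847 and 330840 in confined KO, 309436, 291364 and 293045 in LPS WT and 277910, 313058 and 295262 in LPS KO libraries as labelled. The neutrophil sum, too, follows its most abundant genes, but the whole list moved in some comparisons. Confinement of WT cells called 9 of the 9 genes lower, where 28.4% of all genes were lower. In KO cells it called 3 lower and 0 higher (23.4% and 22.8%). Confined KO against confined WT cells called 9 higher, where 18.8% of all genes were higher. The comparison of responses, the change in KO minus that in WT cells, called 9 higher (10.2%). In nonconfined KO against WT cells 6 were higher and 0 lower (4.78% and 4.11%). Mean levels of *Elane* were 968 in nonconfined WT, 848 in nonconfined KO and 590 in LPS WT libraries as labelled. Those of *Prtn3* were 1402, 1172 and 933. Both were lower in nonconfined KO and LPS WT libraries than in nonconfined WT libraries, against the sum. In confined cells both went with the sum. *Elane* was at 141, 116 and 141 in confined WT and 504, 447 and 467 in confined KO libraries. *Prtn3* was at 399, 353 and 351 and at 892, 832 and 856 in the same groups. LPS called 4 of the 9 higher and 3 lower under the WT label (33.4% and 29.4% of all genes), and 1 and 5 under the KO label (33.4% and 30.1%). Of 9 mast cell and basophil genes, 8 were above 10 in each library, and *Mcpt4* was at 0 in all libraries but replicate 1 of nonconfined WT. Their sum, led by *Cpa3*, was 6968, 7199 and 7039 in nonconfined WT, 10611, 10301 and 10155 in nonconfined KO, 3595, 3463 and 3536 in confined WT, 5595, 5460 and 5667 in confined KO, 6963, 6719 and 6799 in LPS WT and 6539, 7142 and 7187 in LPS KO libraries as labelled. *Kit*, a gene of this list, went against the sum. It was at 724, 747 and 739 in nonconfined WT and 913, 953 and 987 in confined WT libraries. In KO libraries it was at 780, 860 and 801 nonconfined and 1411, 1383 and 1446 confined. Of the 8 genes tested, confinement called 6 lower and 1 higher in WT cells (28.4% and 28.2% of all genes). In KO cells it called 7 lower and 1 higher (23.4% and 22.8%). Confined WT cells were lowest in all 3 granulocyte sums. The part of these shifts, those of DC and macrophage markers included, in the results on the 10 genes was not tested, and in bulk libraries fewer cells of a type and less RNA per cell cannot be told apart.

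**Figure D1:**
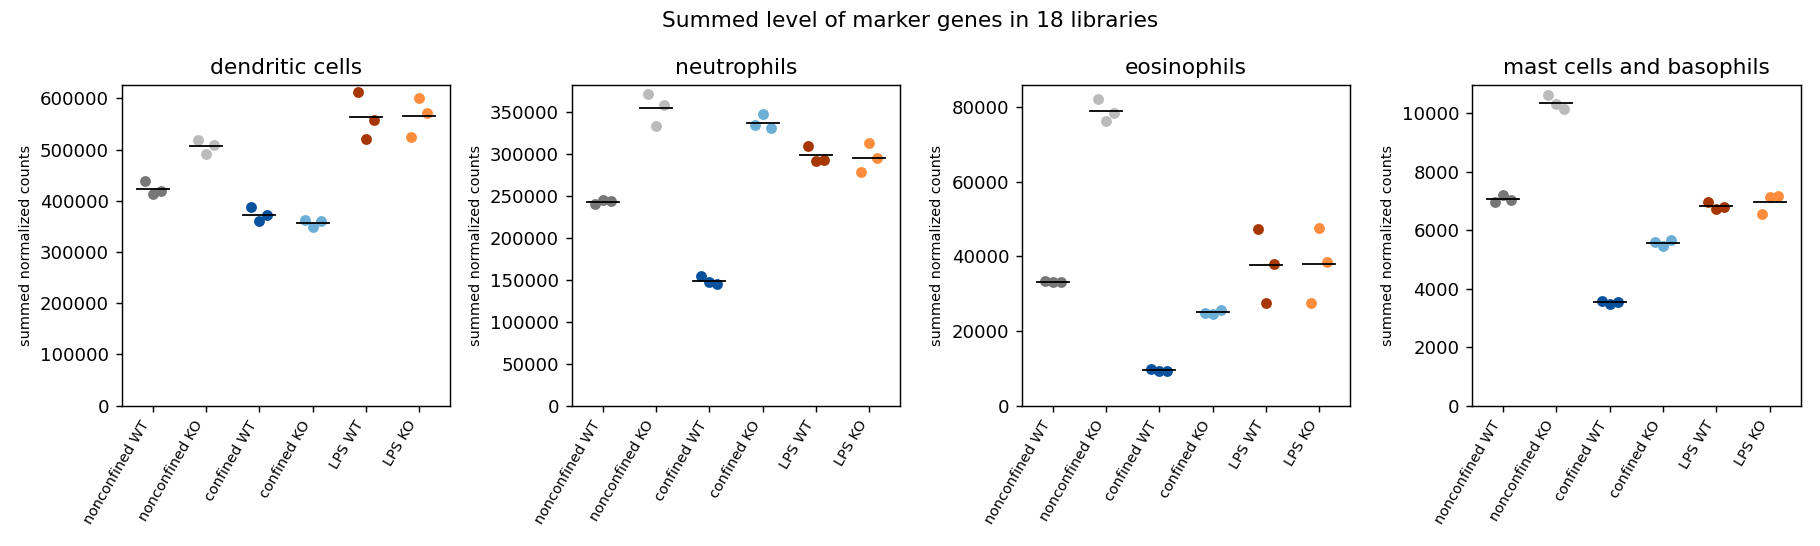
Summed normalized counts (axes from 0) of 4 marker lists in each of the 18 libraries, with points for libraries and lines for group means. The eosinophil sum ranged from 9221 in a confined WT library to 82359 in a nonconfined KO library.

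Levels of different genes were compared per kilobase of annotated exons (GENCODE, GRCm39), an annotation other than that used for counting, so that the order is approximate. The length used for *Adora3* was taken from exons annotated under *Adora3* or *Tmigd3*, the symbols of its shared counted row. The annotated *Adora3* gene ends at base 105816242, while that row extends to 105831360. The place of *Adora3* in each order is therefore uncertain. In nonconfined WT cells *Adora2b* had the highest mean level, 1233 normalized counts per kilobase, followed by *P2ry14* at 976, *Adora3* at 731, *P2ry6* at 672, *P2rx4* at 310, *Entpd1* at 209, *Adora2a* at 106, *Panx1* at 105, *P2ry2* at 43.9 and *P2rx7* at 28.3. Only *Adora2a* and *Panx1* overlapped as neighbours in this order. The order was the same in nonconfined KO cells, from *Adora2b* at 1416 down to *P2rx7*, again with overlap of *Adora2a* and *Panx1*. In confined WT cells *Adora2a*, at 508, came after *Adora2b*, *P2ry14* and *P2ry6*, and *Adora3*, at 171, was above *P2rx7* alone, with overlap between *Entpd1* (402) and *P2rx4* (392) and between *P2ry2* (255) and *Panx1* (249). In confined KO cells *Panx1*, at 327, came after *P2rx4*, and *Adora2a*, at 67.0, was above *P2rx7* alone, with no overlap between neighbours. In the libraries labelled LPS WT, *Adora2b* at 5012 and *Adora2a* at 1579 led, followed by *P2ry14* at 925, *P2rx4* at 440, *P2ry6* at 225, *P2ry2* at 221, *Panx1* at 151, *Entpd1* at 103, *Adora3* at 85.6 and *P2rx7* at 9.98. There *P2ry6* and *P2ry2*, *Panx1* and *Entpd1*, and *Entpd1* and *Adora3* overlapped, and the libraries labelled LPS KO had the same order. The levels of *P2rx7* were the lowest of the 10 in each of the 6 groups.

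**Figure D2:**
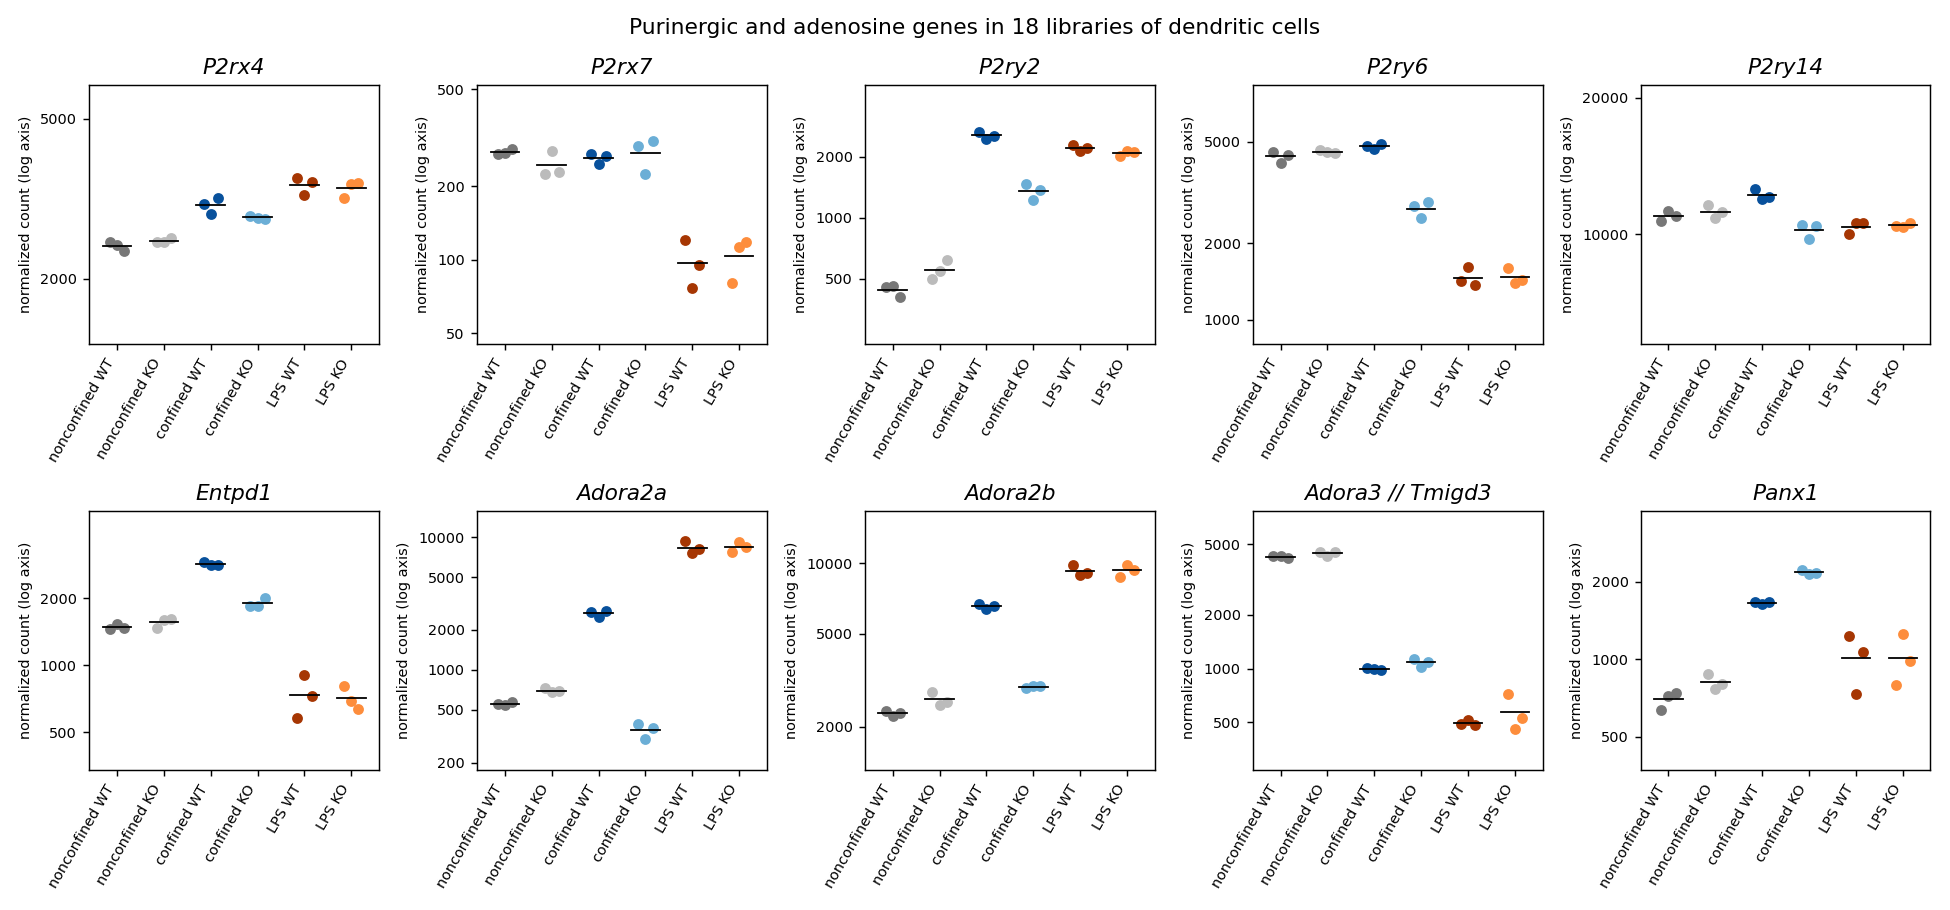
Normalized counts (log axes) of the 10 genes in each of the 18 libraries, with points for libraries and lines for group means. *Adora2a* lay between 302 and 388 in confined KO and between 2512 and 2774 in confined WT libraries.

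Changes were tested with limma on log2(normalized count + 1) over all genes, and a gene was called at a Benjamini-Hochberg adjusted p under 0.05. The added 1 shrinks the fold changes of weakly expressed genes. With confinement of WT cells, 7 of the 10 genes rose and 1 fell, where 28.2% of all genes tested rose and 28.4% fell, and the median log2 fold change was 0.64 for the 10 genes and -0.0055 for all genes. With confinement of KO cells, 5 rose and 4 fell, where 22.8% of all genes rose and 23.4% fell, with medians of 0.17 and 0.010. The comparison of these responses, the change in KO minus the change in WT cells, was negative past the test for 6 of the 10 and positive for 0, where 15.6% of all genes were lower and 10.2% higher, with medians of -0.47 and 0.051. A direct comparison of genotypes called 3 of the 10 higher and 0 lower in nonconfined KO cells, where 4.78% of all genes were higher and 4.11% lower. In confined KO cells 1 was higher and 6 lower than in confined WT cells, where 18.8% of all genes were higher and 20.6% lower. Comparisons with nonconfined cells share those libraries between confinement and LPS, and the comparison of responses reuses the same libraries.

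In the libraries labelled LPS WT, 5 of the 10 were higher and 4 lower than in nonconfined WT cells, where 33.4% of all genes were higher and 29.4% lower. In those labelled LPS KO, 4 were higher and 5 lower than in nonconfined KO cells, where 33.4% were higher and 30.1% lower. With both labels pooled, an alternative added after the values were seen, 5 were higher and 5 lower, where 37.2% were higher and 34.3% lower. Most LPS libraries were closest to a library of the other label. A median chi-square over genes, lower for more alike libraries, was 4.57 for WT 1 with KO 2. It was 3.38 for WT 2 with KO 1 and 3.31 for WT 3 with KO 3. Within the WT label it was 5.11 to 10.0, and within the KO label 4.40 to 8.90. Pooled p-values and the comparison of labels take all LPS libraries as independent, which was not tested. Between the libraries labelled LPS KO and LPS WT, limma called 0 of the 10, where 0% of all genes were higher and 0% lower. At an unadjusted p under 0.05 this comparison held 890 of the 17875 genes and 0 of the 10, and edgeR and DESeq2 on the recovered reads called 0 genes as well. Confined WT cells set beside LPS WT libraries as labelled had 7 of the 10 higher and 3 lower, where 21.6% of all genes were higher and 27.2% lower.

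Scaling every library to the same total in place of the authors' size factors moved the median change over all genes, in log2, to -0.23 for confinement of WT cells, -0.024 for confinement of KO cells, 0.24 for the comparison of responses, 0.19 for KO against WT confined cells, -0.47 and -0.44 for the LPS comparisons and 0.26 for confined WT cells against LPS WT libraries as labelled. The balance of calls over all genes moved with it. Of the 17875 genes, confinement of WT cells then called 3578 higher and 7380 lower, the comparison of responses 4741 higher and 1962 lower, KO against WT confined cells 6001 higher and 2604 lower, and LPS under the WT label 3182 higher and 9294 lower. The shares of all genes given above therefore hold for the size factors. Changes below are relative to the size factors, and the genes whose sign turns under that scaling are named with their values.

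**Figure D3:**
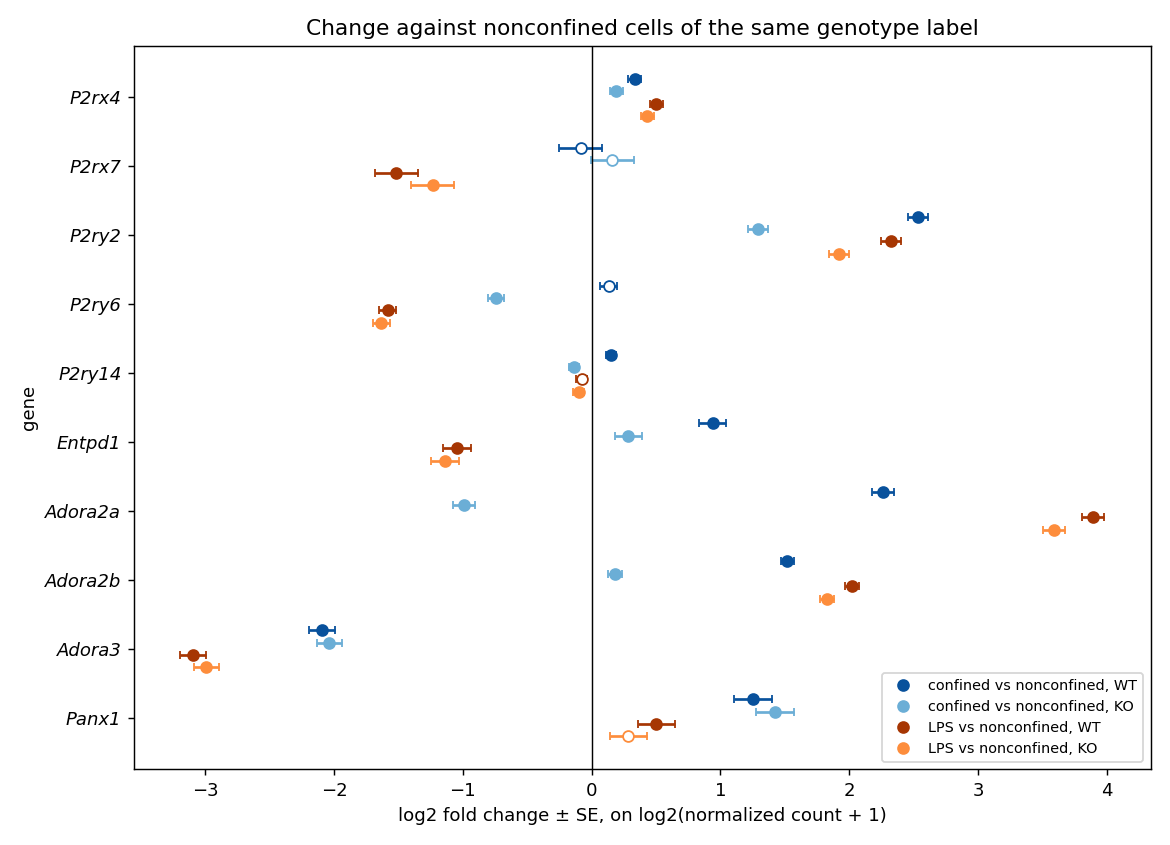
Log2 fold change against nonconfined cells of the same genotype label, with SE bars, for the 10 genes under confinement and LPS. Filled points passed an adjusted p of 0.05 and open points did not; *Adora2a* was at 2.26 under confinement of WT and at -0.99 under confinement of KO cells, and with libraries scaled to the same total *P2rx4* and *Panx1* under LPS and *P2ry6* and *P2ry14* under confinement of WT cells turn negative.

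The adenosine receptors showed the widest range of changes. *Adora2a* encodes the A2a receptor, a high-affinity adenosine receptor coupled to stimulatory G protein. It is identifier GSMG0003763 on the plus strand of chromosome 10 (GRCm39, 75152711 to 75170628), with 3 exons in its canonical transcript. Its normalized counts were 552, 542 and 572 in nonconfined WT and 2727, 2512 and 2774 in confined WT libraries, and 727, 678 and 688 in nonconfined KO and 388, 302 and 367 in confined KO libraries. All confined WT libraries were above and all confined KO libraries below the nonconfined libraries of their genotype. The log2 fold change with confinement was 2.26 (SE 0.09, adjusted p = 2.21e-15), a fold of 4.80, in WT cells and -0.99 (SE 0.09, adjusted p = 5.06e-09) in KO cells, and these responses differed by -3.25 (SE 0.12, adjusted p = 5.33e-15). Confined KO cells had -2.93 (SE 0.09, adjusted p = 3.88e-17) against confined WT cells. In nonconfined cells the KO libraries were higher by a log2 fold change of 0.33 (SE 0.09, adjusted p = 0.0201) without overlap. The call was lost without WT replicate 1 (adjusted p = 0.0608) or 2 (0.0754) or KO replicate 1 (0.0967) or 3 (0.0563).

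Under LPS *Adora2a* reached the highest levels of the series. The libraries labelled LPS WT held 9287, 7535 and 8091 and those labelled LPS KO 7706, 9170 and 8399 normalized counts. Every one of them was above every confined WT library. The log2 fold change was 3.89 (SE 0.09, adjusted p = 8.2e-20) for the WT label, 3.59 (SE 0.09, adjusted p = 3.42e-19) for the KO label and 3.74 (SE 0.06) with labels pooled. Confined WT cells were at -1.63 (SE 0.09, adjusted p = 1.18e-12) relative to the libraries labelled LPS WT. Within the LPS libraries the replicates with high *Ddx3y*, WT 1 and KO 2 as labelled, also had the highest *Adora2a* values.

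*Adora2b* encodes the A2b receptor, which responds to higher adenosine concentrations than A2a. It is identifier GSMG0007524 on the plus strand of chromosome 11 (GRCm39, 62139808 to 62157278), with 2 exons. Its normalized counts were 2326, 2232 and 2288 in nonconfined WT and 6679, 6376 and 6575 in confined WT libraries, and 2812, 2489 and 2561 in nonconfined KO and 2933, 3003 and 2977 in confined KO libraries. Confinement separated the WT libraries widely, and the KO libraries narrowly but without overlap. The log2 fold change was 1.52 (SE 0.05, adjusted p = 4.06e-16) in WT and 0.18 (SE 0.05, adjusted p = 0.0067) in KO cells, with a difference of -1.34 (SE 0.07, adjusted p = 4.65e-12). Confined KO cells were at -1.14 (SE 0.05, adjusted p = 9.54e-14) relative to confined WT cells. In nonconfined cells the KO libraries were higher by 0.20 (SE 0.05, adjusted p = 0.0211), a call that was lost without WT replicate 2 (adjusted p = 0.0887) or 3 (0.0656), without KO replicate 1 (0.138) or with the compared conditions fitted alone (0.0651).

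In LPS-treated cells *Adora2b* was at 9861, 8897 and 9075 in the libraries labelled WT and at 8770, 9815 and 9343 in those labelled KO. These libraries were above all others, as for *Adora2a*. The log2 fold change was 2.02 (SE 0.05, adjusted p = 1.33e-18), 1.83 (SE 0.05, adjusted p = 7.96e-18) and, with labels pooled, 1.93 (SE 0.04), and confined WT cells were at -0.50 (SE 0.05, adjusted p = 6.01e-08) relative to the libraries labelled LPS WT, or -0.21 with the same total per library.

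*Adora3* encodes the A3 receptor, which couples to inhibitory G protein, and went the other way. It is listed jointly with *Tmigd3* as identifier GSMG0034527 on the plus strand of chromosome 3 (GRCm39, 105778174 to 105831360), so that reads of the pair cannot be told apart. Its normalized counts were 4266, 4266 and 4155 in nonconfined WT and 1006, 990 and 978 in confined WT libraries, and 4515, 4276 and 4533 in nonconfined KO and 1136, 1024 and 1090 in confined KO libraries. It fell in both genotypes without overlap. The log2 fold change was -2.09 (SE 0.10, adjusted p = 9.99e-14) in WT and -2.04 (SE 0.10, adjusted p = 5.21e-13) in KO cells, and the difference between these responses, 0.06 (SE 0.14), did not pass the test (adjusted p = 0.82). Leaving out a library gave 0.021 to 0.097 for this difference. Confined KO and confined WT cells differed by 0.13 (SE 0.10, adjusted p = 0.345), which passed without the LPS libraries (adjusted p = 0.0433) and with the same total per library (0.28, adjusted p = 0.0312). In LPS-treated cells it was at 490, 515 and 479 in the libraries labelled WT and at 718, 460 and 527 in those labelled KO. These were the lowest libraries, with log2 fold changes of -3.09 (SE 0.10, adjusted p = 6.1e-17), -2.99 (SE 0.10, adjusted p = 1.12e-16) and -3.04 (SE 0.07) with labels pooled. Confined WT libraries were above those labelled LPS WT by 1.00 (SE 0.10, adjusted p = 2.96e-08). Granulocyte marker sums were lower in confined than in nonconfined WT cells, and in KO cells those of eosinophils and mast cells were. All 6 LPS libraries were below the nonconfined KO libraries in the eosinophil sum, and 4 of the 6 were above the nonconfined WT libraries. The part of these markers in the *Adora3* result was not tested.

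Among the P2Y receptors, *P2ry2* encodes a receptor for ATP and UTP. It is identifier GSMG0052119 on the minus strand of chromosome 7 (GRCm39, 100645775 to 100661260). Its normalized counts were 456, 460 and 405 in nonconfined WT and 2656, 2455 and 2536 in confined WT libraries, and 496, 544 and 615 in nonconfined KO and 1465, 1225 and 1368 in confined KO libraries. It rose in both genotypes, and each confined WT library was above each confined KO library. The log2 fold change was 2.53 (SE 0.08, adjusted p = 4.65e-17), a fold of 5.79, in WT and 1.29 (SE 0.08, adjusted p = 1.29e-11), a fold of 2.45, in KO cells, and these responses differed by -1.24 (SE 0.11, adjusted p = 1.04e-08). Confined KO cells were at -0.92 (SE 0.08, adjusted p = 2.79e-09) relative to confined WT cells. In nonconfined cells KO libraries were higher by 0.32 (SE 0.08, adjusted p = 0.0115), a call that was lost without WT replicate 3 (adjusted p = 0.0766), without KO replicate 3 (0.0835) or with the compared conditions fitted alone (0.0909).

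In LPS-treated cells *P2ry2* was at 2273, 2137 and 2217 in the libraries labelled WT and at 2013, 2140 and 2101 in those labelled KO. These levels lay between those of confined KO and confined WT cells. On the log2 scale the change was 2.33 (SE 0.08, adjusted p = 9.93e-17), 1.92 (SE 0.08, adjusted p = 2.82e-15) and 2.12 (SE 0.05) with labels pooled. Unlike the A2 receptors, *P2ry2* was higher in confined WT cells than in the libraries labelled LPS WT, by 0.21 (SE 0.08, adjusted p = 0.0311), or 0.49 with the same total per library. That call was lost without confined replicate 1 (adjusted p = 0.11) or 3 (0.0637), without LPS replicate 2 (0.0913) or 3 (0.0644) and without a filter on low counts (0.0506).

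*P2ry6* encodes a receptor for UDP and is identifier GSMG0052118, next to *P2ry2* on the minus strand of chromosome 7 (GRCm39, 100586841 to 100613598). Its normalized counts were 4565, 4135 and 4437 in nonconfined WT and 4809, 4671 and 4905 in confined WT libraries, and 4626, 4534 and 4509 in nonconfined KO and 2786, 2508 and 2889 in confined KO libraries. Only the confined KO libraries were clearly below the others of these groups. This was a log2 fold change of 0.13 (SE 0.06, adjusted p = 0.0898) in WT cells, where TMM scaling (adjusted p = 0.0396), edgeR (0.0373), the compared conditions alone (0.023) and the fit without the LPS libraries (0.0364) gave a call and the same total per library gave -0.093. In KO cells it was -0.74 (SE 0.06, adjusted p = 5.66e-09), and the responses differed by -0.87 (SE 0.09, adjusted p = 1.7e-07). Confined KO cells were at -0.82 (SE 0.06, adjusted p = 1.17e-09) relative to confined WT cells.

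The libraries labelled LPS WT held 1419, 1606 and 1369 and those labelled LPS KO 1592, 1396 and 1431 normalized counts of *P2ry6*. They were below all other libraries, with log2 fold changes of -1.58 (SE 0.06, adjusted p = 4.24e-15), -1.63 (SE 0.06, adjusted p = 2.53e-15) and -1.61 (SE 0.05) with labels pooled. Confined WT cells were therefore higher than the libraries labelled LPS WT, by 1.71 (SE 0.06, adjusted p = 5.47e-15).

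*P2ry14* encodes a receptor for UDP-sugars and is identifier GSMG0035342 on the minus strand of chromosome 3 (GRCm39, 59022039 to 59061040). It lies within the span of *Med12l* on the other strand, and where counting did not use strand their reads cannot be told apart. Measured levels were 10696, 11249 and 10962 in nonconfined WT and 12562, 11939 and 12072 in confined WT libraries, and 11587, 10844 and 11222 in nonconfined KO and 10467, 9737 and 10425 in confined KO libraries. The groups were separated by confinement in each genotype, in opposite directions and by little. In log2 the change was 0.15 (SE 0.04, adjusted p = 0.00342) in WT cells, where the same total per library gave -0.073, and -0.14 (SE 0.04, adjusted p = 0.0102) in KO cells, where the call was lost without nonconfined replicate 1 (adjusted p = 0.051) or confined replicate 2 (0.0681). The responses differed by -0.29 (SE 0.06, adjusted p = 0.00074), which the same total per library reduced to -0.099 (adjusted p = 0.166). Confined KO cells were at -0.26 (SE 0.04, adjusted p = 3.55e-05) relative to confined WT cells, and at -0.10 (adjusted p = 0.0377) with the same total.

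Under LPS *P2ry14* was at 10028, 10593 and 10569 in the libraries labelled WT and at 10436, 10364 and 10604 in those labelled KO. For the WT label the log2 fold change of -0.08 (SE 0.04, adjusted p = 0.11) did not pass the test, while TMM scaling (adjusted p = 0.0127), edgeR (0.0147), DESeq2 (0.0161) and the same total (-0.59) gave a call. For the KO label it was -0.10 (SE 0.04, adjusted p = 0.0417), a call lost without nonconfined replicate 1 (adjusted p = 0.154) or 3 (0.0837), without LPS replicate 1 (0.0794), 2 (0.0974) or 3 (0.0577) with the compared conditions alone (0.0908), with no filter (0.0733) and with a replicate term (0.0512). With labels pooled it was -0.09 (SE 0.03, adjusted p = 0.0104), and confined WT cells were above the libraries labelled LPS WT by 0.23 (SE 0.04, adjusted p = 8.71e-05). With the same total the change under the KO label was -0.58, and edgeR gave -0.15 under that label. The difference between confined WT cells and the libraries labelled LPS WT was 0.52 with the same total.

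Of the P2X channels, *P2rx4* encodes an ATP-gated cation channel found on the cell surface and in lysosomes. It is identifier GSMG0041087 on the plus strand of chromosome 5 (GRCm39, 122845607 to 122867801). Counts for it were 2477, 2426 and 2346 in nonconfined WT and 3069, 2904 and 3183 in confined WT libraries, and 2470, 2475 and 2529 in nonconfined KO and 2876, 2843 and 2816 in confined KO libraries. Confined libraries were above nonconfined ones in both genotypes. On the log2 scale the change was 0.34 (SE 0.05, adjusted p = 6.28e-06) in WT and 0.19 (SE 0.05, adjusted p = 0.0035) in KO cells. The same total per library reduced the change in WT cells to 0.11 (adjusted p = 0.0369). The difference of -0.14 (SE 0.07) between the responses did not pass the test (adjusted p = 0.147), and that scaling turned it to 0.044. Under confinement, KO cells were at -0.10 (SE 0.05, adjusted p = 0.123) relative to confined WT cells, with no overlap, where TMM scaling (-0.13, adjusted p = 0.0404) and edgeR (adjusted p = 0.0440) gave a call and the same total per library turned the value to 0.055.

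Under LPS *P2rx4* was at 3571, 3226 and 3478 in the libraries labelled WT and at 3176, 3451 and 3462 in those labelled KO. All were above the nonconfined libraries, with log2 fold changes of 0.50 (SE 0.05, adjusted p = 1.33e-08), 0.43 (SE 0.05, adjusted p = 1.37e-07) and 0.47 (SE 0.04) with labels pooled, but the same total per library gave -0.011 and -0.048 for the WT and KO labels. Confined WT cells were at -0.17 (SE 0.05, adjusted p = 0.0089) relative to the libraries labelled LPS WT, a call lost without confined replicate 2 (adjusted p = 0.0595), without LPS replicate 1 (0.0517), with TMM scaling (0.126) and with edgeR (0.124), and turned to 0.12 (adjusted p = 0.0254) by the same total.

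*P2rx7*, the neighbouring gene, encodes the ATP-gated channel known for driving inflammasome activation. It is identifier GSMG0041085 on the plus strand of chromosome 5 (GRCm39, 122781973 to 122830399), and noncoding genes are annotated on its other strand. Measured levels were 271, 274 and 284 in nonconfined WT, 271, 246 and 265 in confined WT, 225, 279 and 228 in nonconfined KO and 292, 224 and 306 in confined KO libraries. Confinement gave log2 fold changes of -0.08 (SE 0.17, adjusted p = 0.694) in WT and 0.16 (SE 0.17, adjusted p = 0.458) in KO cells, neither past the test. Leaving out a library gave -0.11 to -0.044 in WT and 0.075 to 0.30 in KO cells. Under LPS it fell to 120, 76.9 and 95.1 in the libraries labelled WT and 80.6, 113 and 118 in those labelled KO, below all others. This was a log2 fold change of -1.52 (SE 0.17, adjusted p = 6.16e-08), -1.23 (SE 0.17, adjusted p = 1.28e-06) and -1.38 (SE 0.12) with labels pooled, and confined WT cells were above the libraries labelled LPS WT by 1.43 (SE 0.17, adjusted p = 3.2e-07).

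*Entpd1* encodes CD39, the enzyme that limits extracellular ATP and ADP. It is identifier GSMG0027693 on the plus strand of chromosome 19 (GRCm39, 40600043 to 40731098), a span that holds annotated noncoding genes on both strands and overlaps *Tctn3* on the minus strand. Counts for it were 1459, 1536 and 1475 in nonconfined WT and 2916, 2837 and 2824 in confined WT libraries, and 1468, 1598 and 1607 in nonconfined KO and 1847, 1845 and 2009 in confined KO libraries. Confined libraries were above nonconfined ones in each genotype, by more in WT. In log2 the change was 0.94 (SE 0.11, adjusted p = 1.57e-07) in WT and 0.29 (SE 0.11, adjusted p = 0.0337) in KO cells, with a difference of -0.65 (SE 0.15, adjusted p = 0.00256). Under confinement, KO cells were at -0.59 (SE 0.11, adjusted p = 0.000141) relative to confined WT cells. The call in KO cells was lost without nonconfined replicate 1 (adjusted p = 0.118) or 3 (0.0520), without confined replicate 1 (0.0509), 2 (0.0530) or 3 (0.117), with no filter (0.0588) and with the same total (0.0818).

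LPS moved *Entpd1* in the opposite direction. Measured levels were 576, 902 and 727 in the libraries labelled WT and 804, 692 and 638 in those labelled KO, all below the nonconfined libraries. On the log2 scale the change was -1.04 (SE 0.11, adjusted p = 2.19e-08), -1.14 (SE 0.11, adjusted p = 5.81e-09) and -1.09 (SE 0.08) with labels pooled, and confined WT cells were above the libraries labelled LPS WT by 1.98 (SE 0.11, adjusted p = 1.92e-12).

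*Panx1* encodes pannexin 1, a membrane channel that lets ATP out of cells. It is identifier GSMG0057866 on the minus strand of chromosome 9 (GRCm39, 14916457 to 14956774), where a noncoding gene is annotated on the other strand. Counts for it were 633, 719 and 743 in nonconfined WT and 1674, 1644 and 1668 in confined WT libraries, and 874, 767 and 800 in nonconfined KO and 2226, 2151 and 2168 in confined KO libraries. It rose in both genotypes, and among the genes that rose with confinement in both it was the member with the higher level in confined KO cells. This was a log2 fold change of 1.25 (SE 0.14, adjusted p = 1.77e-07) in WT and 1.42 (SE 0.14, adjusted p = 5.48e-08) in KO cells, and the difference of 0.17 (SE 0.20) did not pass the test (adjusted p = 0.601). Under confinement, KO cells were above confined WT cells by 0.39 (SE 0.14, adjusted p = 0.0355) without overlap. That call was lost without confined WT replicate 1 (adjusted p = 0.0712), 2 (0.083) or 3 (0.0747), without confined KO replicate 1 (0.0868), 2 (0.0681) or 3 (0.0736), with no filter (0.0635), with TMM scaling (0.0533), and with a term for the replicate number (0.0506). Without the LPS libraries, where the spread of this gene was wide, the KO libraries were also called higher in nonconfined cells, at 0.22 (adjusted p = 0.0299) against 0.22 (adjusted p = 0.4) with them.

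*Panx1* varied within the LPS libraries, at 1236, 733 and 1064 for the WT label and 792, 1249 and 983 for the KO label. WT 1 and KO 2, the libraries with high *Ddx3y*, were highest, WT 2 and KO 1 lowest. In log2 the change was 0.50 (SE 0.14, adjusted p = 0.00445) for the WT label, with overlap of the groups, and 0.29 (SE 0.14, adjusted p = 0.089) for the KO label, which passed the test without LPS replicate 1 (0.45, adjusted p = 0.00861) and was 0.12 without LPS replicate 2, the highest library of its group. With labels pooled it was 0.40 (SE 0.10, adjusted p = 0.0016), and the same total per library gave -0.0096 and -0.19 for the WT and KO labels. Confined WT cells were above the libraries labelled LPS WT by 0.75 (SE 0.14, adjusted p = 0.00018).

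Without the 6 LPS libraries, an alternative added after the values were seen, confinement of WT cells called 9 of the 10 genes, where 5133 of all 17875 genes were higher and 5318 lower, and confinement of KO cells called 9, where 4225 were higher and 4465 lower. The comparison of responses called 6 (2350 higher and 2878 lower over all genes), KO against WT nonconfined cells called 4 (1208 and 1016) and KO against WT confined cells called 8 (3744 and 3760).

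Other genes of nucleotide release, hydrolysis, reception and adenosine handling were taken from a list of 45, of which 44 were in the table and 31 were tested. *Calhm3* was not analysed here. With confinement of WT cells 9 of the 31 rose and 16 fell, with a median log2 fold change of -0.23, where 28.2% of all genes rose and 28.4% fell. With confinement of KO cells 8 rose and 11 fell, with a median of -0.18, where 22.8% rose and 23.4% fell. The comparison of responses called 4 higher and 4 lower (10.2% and 15.6% of all genes). KO against WT called 5 higher and 3 lower in nonconfined cells (4.78% and 4.11%) and 8 higher and 7 lower in confined cells (18.8% and 20.6%). LPS called 9 higher and 14 lower for the WT label (33.4% and 29.4%), 8 and 16 for the KO label (33.4% and 30.1%) and 9 and 17 with labels pooled (37.2% and 34.3%), and 0 differed between the labels. Confined WT cells against LPS WT libraries as labelled called 10 higher and 9 lower (21.6% and 27.2%).

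Among the enzymes that supply adenosine, *Nt5e*, which encodes CD73, rose with *Entpd1*. Measured levels were 459, 416 and 457 in nonconfined WT, 1345, 1387 and 1305 in confined WT, 461, 457 and 469 in nonconfined KO and 1164, 1163 and 1161 in confined KO libraries. On the log2 scale the change was 1.60 (SE 0.16, adjusted p = 1.39e-08) in WT and 1.33 (SE 0.16, adjusted p = 4.25e-07) in KO cells, and the difference did not pass the test (adjusted p = 0.415). Under LPS it was between 206 and 385, below all other libraries. *Acp3*, listed by its older symbol *Acpp* and encoding prostatic acid phosphatase, which also hydrolyses AMP, rose by 1.91 in WT and by 0.76 in KO cells with confinement, and by 2.77 with LPS and labels pooled. *Entpd4*, an intracellular nucleotidase listed jointly with *Entpd4b*, was at 377, 379 and 385 in nonconfined WT but at 46.4, 60 and 29.6 in confined WT libraries, and at 328, 532 and 561 in confined KO libraries, a difference between responses of 3.03 (adjusted p = 0.00047). *Entpd6* fell by 0.98 in WT and 0.59 in KO cells. *Entpd3* and *Enpp1* were below 102 in each library, and *Enpp1* rose with confinement of KO cells, by 1.31 (adjusted p = 0.000598).

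*Gja1* encodes connexin 43, another route of ATP release. It was at 25.9, 15.3 and 17.7 in nonconfined WT and 1886, 1818 and 1805 in confined WT libraries, and at 21.9, 16.8 and 36.9 in nonconfined KO and 66.9, 40.5 and 47.4 in confined KO libraries. This was a log2 fold change of 6.51 (adjusted p = 3.53e-15) in WT and 1.05 (adjusted p = 0.00186) in KO cells, and the responses differed by -5.46 (adjusted p = 8.94e-11). Under LPS it was between 391 and 690. *Slc17a9*, the vesicular nucleotide transporter, fell by 0.68 in WT and by 0.26 in KO cells with confinement, and *P2ry12*, an ADP receptor, fell by 0.67 and 0.97. With LPS and labels pooled the log2 fold change was -1.16 for *Slc17a9* and -1.95 for *P2ry12*.

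Among genes that remove adenosine, *Ada*, adenosine deaminase, was at 232, 233 and 240 in nonconfined WT and 89.9, 105 and 123 in confined WT libraries, a log2 fold change of -1.15 (adjusted p = 3.55e-06), with -0.83 in KO cells. *Dpp4*, which in humans binds adenosine deaminase, had log2 fold changes of -1.93 in WT and -1.90 in KO cells. *Adk*, adenosine kinase, fell by 0.65 and 0.29, and the difference of 0.36 passed the test (adjusted p = 0.0162). *Slc29a1*, an equilibrative nucleoside transporter, fell by 0.20 in WT cells with overlap of the groups (adjusted p = 0.0143) and by 0.75 with LPS and labels pooled. *Pnp*, purine nucleoside phosphorylase, rose by 0.29 in WT cells, fell by 0.71 in KO cells and rose by 2.00 with LPS and labels pooled. *Ampd3*, an AMP deaminase, rose by 1.54 and 1.48 with confinement, and in the LPS libraries was at 4630, 2324 and 3422 for the WT label and 2339, 4571 and 3453 for the KO label, highest in WT 1 and KO 2 and lowest in WT 2 and KO 1, as *Ddx3y* was. The concentrative transporter *Slc28a2* rose with LPS, by 1.60 with labels pooled, and *Slc28a3* was at 1.52 to 3.41 in nonconfined WT and 32.6 to 42.6 in confined WT libraries. *Slc28a3* was at 0 to 3.88 in nonconfined KO, 4.32 to 6.40 in confined KO and 11.4 to 39.2 in the LPS libraries.

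For each of the 10 genes the 3 genes of most similar pattern were sought among 10554 genes with a symbol and a mean of at least 100 normalized counts, by Pearson correlation of log2 values over the 18 libraries. The libraries fall into 6 groups, so these correlations follow the group means. *Adora2a* was nearest to *Marcksl1* (0.997), *Gpr85* (0.996) and *Pid1* (0.995), and *Adora2b* to *Nfkbia* (0.998), *Ccrl2* (0.998) and *Nfkbib* (0.997). *P2ry2* was nearest to *Pdpn* (0.993), *Cyth3* (0.993) and *Gna13* (0.991), and *Adora3* to *Cdh1* (0.994), *Mgl2* (0.993) and *Mthfd1* (0.992). *Panx1* was nearest to *Cyb5a* (0.992), *Slc48a1* (0.988) and *Lipa* (0.982), *P2rx4* to *Arrdc4* (0.988), *Irak2* (0.987) and *Cry1* (0.985), and *P2ry6* to *Gcnt2* (0.985), *Chaf1b* (0.981) and *Mfsd13a* (0.974). *Entpd1* was nearest to *Auh* (0.982), *Uck2* (0.973) and *Gdi2* (0.972), *P2rx7* to *Slc16a14* (0.972), *Ifngr1* (0.970) and *Yars* (0.970), and *P2ry14*, which varied little, to *Tspan31* (0.903), *Gem* (0.900) and *Lmnb1* (0.895). Among the 10 genes themselves, *Adora2a* and *Adora2b* were most alike (0.960) and *P2rx4* and *Adora3* most opposed (-0.963).

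The 250 bases before the annotated starts of the 10 genes were searched for regulatory motifs. RefSeq windows (GRCm38.p6, a build other than that of the counts) were matched for 8 of the 10 genes, with 14 windows in all. In the set of windows used, none was matched for *Adora2a* and *P2ry6*. The motifs, on both strands, were the NF-kB consensus, held by 3.92% of 32536 promoter windows of this length, the interferon-stimulated response element GAAANNGAA (7.15%), the cAMP response element TGACGTCA (1.56%), the hypoxia response core ACGTG (16.7%) and the AP-1 motif TGANTCA (6.73%). AP-1 motifs were found in *Adora3*, in the first of the *P2rx7* windows and in the first and the second of the *P2ry14* windows, and the hypoxia core in the second of the *P2ry2* windows. All other windows, those of *P2rx4*, *Entpd1*, *Adora2b* and *Panx1* and the first of *P2ry2* among them, held none of the motifs. Windows are printed for *P2ry2* and *Adora2b*, which rose, and for *Adora3*, which fell, and capitals mark a match. The window before the more downstream of the annotated *P2ry2* starts (chr7:101011999-101012248, minus strand) holds the hypoxia core on each strand in overlapping letters, that of *Adora2b* (chr11:62248734-62248983, plus strand) holds none of the 5 motifs, and that of *Adora3* (chr3:105904171-105904420, plus strand) holds an AP-1 motif. Such matches describe letters only, and nothing was measured at these promoters.
P2ry2: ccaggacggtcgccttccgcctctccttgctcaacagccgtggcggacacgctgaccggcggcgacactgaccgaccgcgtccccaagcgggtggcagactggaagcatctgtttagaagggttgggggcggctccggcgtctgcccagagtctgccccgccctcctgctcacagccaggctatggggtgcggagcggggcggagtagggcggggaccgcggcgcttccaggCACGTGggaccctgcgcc
Adora2b: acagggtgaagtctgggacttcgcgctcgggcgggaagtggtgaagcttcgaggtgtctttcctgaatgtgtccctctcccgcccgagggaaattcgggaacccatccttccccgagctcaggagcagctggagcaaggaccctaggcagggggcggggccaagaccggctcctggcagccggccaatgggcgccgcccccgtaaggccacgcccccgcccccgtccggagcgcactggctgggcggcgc
Adora3: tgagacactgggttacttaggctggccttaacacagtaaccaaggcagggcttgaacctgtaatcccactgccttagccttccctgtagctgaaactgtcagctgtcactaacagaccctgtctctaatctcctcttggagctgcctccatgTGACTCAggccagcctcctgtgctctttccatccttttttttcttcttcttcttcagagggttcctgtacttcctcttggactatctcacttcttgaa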

How the data were processed

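The deposited values are signal: the authors mapped reads with STAR 2.7.5a to GRCm39, counted them on FAST DB genes and divided by DESeq2 size factors; their notes also name featureCounts 1.5.0 and R 3.5.3. Whole reads, within 0.0001, were recovered for 100% of values. Their intergenic filter was not repeated. Here log2(value + 1) was fitted with limma 3.58.1 (R 4.3.3, trend), with 1 mean per group. The fit was run on drawn counts as a self-test. Alternatives were other pseudocounts, filters, scalings and thresholds, edgeR 4.0.16, DESeq2 1.42.0, smaller fits, a replicate term and each library left out. The 10 genes and the lists were chosen with earlier results of these data known. List genes were named if called with an absolute log2 fold change above 1 in any comparison, or as *Nt5e*, *Ada*, *Adk* or *Slc29a1*; *Acot1* was added after values were seen. Figures used matplotlib 3.10.9.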

Additional observations from a re-analysis of the deposited data

Results flagged for a closer look

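For 6 of the 10 genes the response to confinement differed between genotypes in the test of the difference itself, with the change in KO cells below that in WT cells, where 15.6% of all genes were lower and 10.2% higher. On the log2 scale the difference was -3.25 for *Adora2a*, -1.34 for *Adora2b*, -1.24 for *P2ry2*, -0.87 for *P2ry6*, -0.65 for *Entpd1* and -0.29 for *P2ry14*, the last reduced to -0.099 (limma, adjusted p = 0.166) with the same total per library. *Adora2a* rose in WT and fell in KO cells. *P2ry6* and *P2ry14* fell in KO cells, and their small positive changes in WT cells turned to -0.093 and -0.073 with the same total per library. Genotype and donor sex cannot be told apart in these differences.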

How the results depend on the processing

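Counts of called genes among the 10 changed by more than 1.5 times, or to or from 0, in the following settings. A call that also needed a log2 fold change above 1 left 5 genes for confinement of WT cells (from 8), 3 for confinement of KO cells (from 9), 3 for the comparison of responses (from 6), 0 for KO against WT nonconfined cells (from 3), 2 for KO against WT confined cells (from 7) and 5 for confined WT cells against LPS WT libraries as labelled (from 10). Of all 17875 genes this rule called, in the same order, 2038 higher and 1362 lower, 1150 and 989, 198 and 1173, 152 and 54, 498 and 1307, and 1130 and 1342. A fold change of 1.5 with an unadjusted p of 0.05 left 5 for confinement of KO cells, 0 for KO against WT nonconfined cells and 6 for confined WT cells against LPS WT libraries as labelled, where it called 4227, 1000 and 4688 of all genes. For KO against WT nonconfined cells, the compared conditions alone left 1 (848 higher and 532 lower over all genes), and leaving out a library gave 1 to 3 (475 to 973 higher and 281 to 1124 lower). Pooling the LPS labels and leaving out the LPS libraries were added after the data were seen.

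Signs turned where changes were small. With the same total per library, log2 fold changes became -0.093 for *P2ry6* and -0.073 for *P2ry14* with confinement of WT cells, 0.044 for *P2rx4* in the comparison of responses, -0.0016 for *P2ry14* in KO against WT nonconfined cells, 0.055 for *P2rx4* in KO against WT confined cells, -0.011 and -0.0096 for *P2rx4* and *Panx1* with LPS under the WT label, -0.048 and -0.19 under the KO label, and 0.12 for *P2rx4* in confined WT cells against LPS WT libraries as labelled. With a library left out, *P2rx7* in KO against WT confined cells ranged from -0.025 to 0.20. Between the LPS labels, where no gene of the 10 was called, the ranges were -0.069 to 0.014 for *P2rx4*, -0.059 to 0.27 for *P2rx7*, -0.048 to 0.077 for *P2ry6*, -0.016 to 0.024 for *P2ry14*, -0.19 to 0.13 for *Entpd1*, -0.045 to 0.11 for *Adora2a*, -0.034 to 0.050 for *Adora2b*, -0.0073 to 0.31 for *Adora3* and -0.21 to 0.17 for *Panx1*, for which edgeR gave -0.0047 and DESeq2 -0.0053. The cause was not tested.

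Between groups, libraries sharing a replicate number had residual correlations of -0.14 to 0.34, and pairing was not used. With the replicate block, 8 of the 10 genes were called for confinement of WT cells (4986 higher and 5016 lower of all 17875 genes) and 9 of KO cells (4021 and 4117), 6 in the comparison of responses (1716 and 2710) and 6 for KO against WT confined cells (3255 and 3606).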

Other observations

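The limits of these data are few in number but bear on most values. *Pla2g4a* did not follow the genotype labels of the LPS libraries, and markers of donor sex differ between the genotypes in nonconfined and confined cells. DC and granulocyte markers differ between groups, and nonconfined, confined and LPS-treated cells were collected at different times. Most LPS libraries were closest to a library of the other label, and the fits took them as independent. Protein and nucleotide levels were not measured.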
